A study of Mus musculus with 22 samples.

Results

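Genomic imprinting leaves 1 parental copy of a gene active and the other silent. The copies are told apart by DNA methylation set in the germ line, and at a few loci the methylated copy is the paternal one. At H19-Igf2 the paternally methylated control region lies upstream of H19, a maternally expressed non-coding RNA. On the unmethylated maternal copy it binds the insulator protein CTCF, which keeps enhancers from Igf2, the gene of a fetal growth factor expressed from the paternal copy. At Dlk1-Meg3 the paternally methylated region lies between Dlk1, which encodes a transmembrane inhibitor of differentiation, and Meg3, a maternally expressed non-coding RNA. The same domain holds Dio3, the thyroid hormone inactivating deiodinase, and its antisense gene Dio3os. Rasgrf1, a guanine nucleotide exchange factor for Ras, is a further gene with paternal methylation upstream. In bulk tissue a methylated and an unmethylated copy together give an intermediate methylation level, while the promoters of most CpG islands are unmethylated.

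The loci of H19, Igf2, Igf2os (the antisense gene of Igf2), Dlk1, Meg3, Dio3, Dio3os and Rasgrf1 were examined at every CpG position that was covered by at least 10 reads in all 22 samples and lay in the gene body or within 5 kb of a RefSeq transcription start site (TSS). This rule gave 428 of the 1140639 positions covered in all samples, or 69.0% of the 620 positions seen in these windows in any sample. Igf2 had 168 positions, 166 of them shared with Igf2os, Dio3 and Dio3os shared the same 117, Dlk1 had 72, Rasgrf1 46, Meg3 14 and H19 11. The positions stood on 348 CpG dinucleotides, since the strands of a CpG are listed apart. Methylation was measured by enhanced reduced representation bisulfite sequencing (ERRBS), in which each covered cytosine is scored by the percent of reads that kept a cytosine after bisulfite conversion.

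The cases were F1 females heterozygous for the MMTV-PyVT transgene on the FVB/N background (PyMT), in which the mouse mammary tumor virus promoter drives polyoma middle T antigen in the mammary epithelium. The controls were FVB females of matched age without the transgene. The PyMT samples comprised 2 mice with hyperplasia (week 6), 3 with adenoma/MIN (week 8), 3 with early carcinoma (week 10) and 2 with late carcinoma (week 12), and the controls 3 mice at each week. Bulk mammary tissue was compared with bulk mammary gland, so that a change within cells and a change in the mix of cells cannot be told apart.

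Mean coverage was 60.2 to 79.2 reads per position and sample. Over all positions, mean methylation was 24.6% to 25.2% in the PyMT samples and 25.8% to 26.3% in the controls. FVB week 8 replicate 2 stood apart, with a mean correlation of 0.972 with the other controls against 0.978 to 0.984 for the other controls. Of the cell type marker lists, the epithelial and endothelial ones had sample means that did not overlap between the strains. Of 247 positions of 8 epithelial genes, 49 (19.8%) passed the mouse-level test described below as lower in PyMT and 2 (0.810%) as higher. Over all positions in the series 9.24% were lower and 5.12% higher. The epithelial mean was 6.41% to 7.10% in the PyMT samples and 10.5% to 13.1% in the controls. Of 19 positions of endothelial genes 15 (78.9%) were higher and 2 (10.5%) lower, with sample means of 49.7% to 63.3% against 29.0% to 40.2%. Esam alone held 12 of these 19 positions, all called higher (58.7% ± 8.28 in PyMT and 23.5% ± 5.71 in FVB, SD). Pecam1 had 2 of 3 positions higher and Tie1 its 1 position. Cdh5 went the other way, with 2 of 3 positions lower (31.9% against 47.8%). For adipocyte genes 4 (4%) were higher and 14 (14%) lower of 100, with means of 13.1% to 17.3% against 17.2% to 20.6%. Leukocyte genes had 6 (11.1%) higher and 2 (3.70%) lower of 54, with means of 8.47% to 12.7% against 8.79% to 11.1%. Fibroblast genes had 1 (1.96%) higher and 0 lower of 51, with means of 1.32% to 2.85% against 0.915% to 2.24%. The part of the cell mix in the results that follow was not tested.

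The sequences of the places to which the results refer were read from GRCm38.p6, which has the mm10 coordinates. They are printed 5′ to 3′ on the plus strand of the chromosome unless stated otherwise, with each CpG covered in all samples in capitals. The first holds both covered positions of the H19 control region (chr7:142581122-142581208, intergenic). The next is an island in introns of Igf2 and Igf2os (chr7:142664171-142664407), where methylation was higher in PyMT. The remaining stretches hold the positions with the largest losses: 3 in an Igf2 intron (chr7:142665162-142665202, chr7:142665533-142665573 and chr7:142665569-142665609), 1 in a Rasgrf1 intron (chr9:89958085-89958125), 1 in a Dio3os intron (chr12:110275995-110276035), and a block between Dlk1 and Meg3 (chr12:109525692-109525812, intergenic).
H19 control region: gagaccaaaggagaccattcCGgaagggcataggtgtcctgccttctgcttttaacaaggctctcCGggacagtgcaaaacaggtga
Igf2 island: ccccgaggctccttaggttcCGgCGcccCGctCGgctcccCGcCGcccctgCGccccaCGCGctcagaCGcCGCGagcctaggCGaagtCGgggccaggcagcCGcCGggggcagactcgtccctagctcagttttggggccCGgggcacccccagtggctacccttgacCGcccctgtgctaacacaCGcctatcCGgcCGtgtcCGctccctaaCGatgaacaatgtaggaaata
Igf2 intron at 142665182: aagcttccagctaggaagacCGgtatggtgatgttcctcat
Igf2 intron at 142665553: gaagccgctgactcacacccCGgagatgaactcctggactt
Igf2 intron at 142665589: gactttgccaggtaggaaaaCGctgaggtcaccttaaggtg
Rasgrf1 intron: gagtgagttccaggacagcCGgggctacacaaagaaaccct
Dio3os intron: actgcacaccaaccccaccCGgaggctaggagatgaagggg
Between Dlk1 and Meg3: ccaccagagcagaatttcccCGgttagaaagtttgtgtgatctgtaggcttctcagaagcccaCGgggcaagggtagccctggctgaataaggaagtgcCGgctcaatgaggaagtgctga

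The Igf2 island held 25 CpGs in 237 bases at a GC content of 69.6%, and the block between Dlk1 and Meg3 held 3 CpGs in 121 bases at 53.7%. The window 2 to 4 kb upstream of the H19 TSS was searched on both strands for a core motif of CTCF with 14 letters and held 4 matches, all on the minus strand, which is the strand of H19. Of the windows of the same length upstream of 26180 RefSeq genes, 22 (0.084%) held a match. The matches are shown with 10 bases on either side, 5′ to 3′ on the minus strand and with the motif in capitals, at chr7:142580299-142580332, chr7:142580754-142580787, chr7:142581780-142581813 and chr7:142582024-142582057.
CTCF match 1: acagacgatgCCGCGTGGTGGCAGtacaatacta
CTCF match 2: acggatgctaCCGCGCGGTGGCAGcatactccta
CTCF match 3: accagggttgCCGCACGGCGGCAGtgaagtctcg
CTCF match 4: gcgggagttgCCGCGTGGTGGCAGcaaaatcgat
No position covered in all samples lay inside a match. The nearest match centre was 371 bp from a covered position, so the values of the H19 control region below describe the sequence between the CTCF matches and not the matches themselves.

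Small gains at unmethylated promoters and islands of Igf2, Dlk1 and Dio3 with Dio3os were joined by larger losses at a few methylated positions. No gain was called at the unmethylated Rasgrf1 promoter. The mouse-level test fitted the percent of each mouse on strain and week with limma, with Benjamini-Hochberg adjusted p under 0.05 over all 1140639 positions. By this test 61 of the 428 positions (14.3%) were higher in PyMT, against 5.12% of all positions, and 16 (3.74%) were lower, against 9.24%. The higher calls had differences of 1.48 to 14.8 points (median 4.63), and the lower calls had losses of 1.39 to 43.7 points (median 16.2). Where the controls were below 10%, 60 of 357 positions (16.8%) were called higher and 1 lower, while over all positions of this level 2.54% were higher and 0.351% lower. At control levels of 30 to 70%, 0 of 25 positions were higher and 6 were lower, against 21.4% and 35.8% of all positions of this level. Above 70%, 7 of 39 were lower and 0 higher, against 21.2% and 4.13%. At an unadjusted limma p under 0.05, 1 position was higher in each of these classes, and 3 positions of each were hypermethylated at 1 or more stages in the read-level test given further on. Neighboring positions share reads, so these counts do not stand for independent events. The median difference was 0.70 points over the 428 positions and 0 over all positions. All 10 PyMT samples exceeded all 12 controls at 1 position (0.654% of all positions did so) and fell below them at 1 (2.08%).

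**Figure D1:**
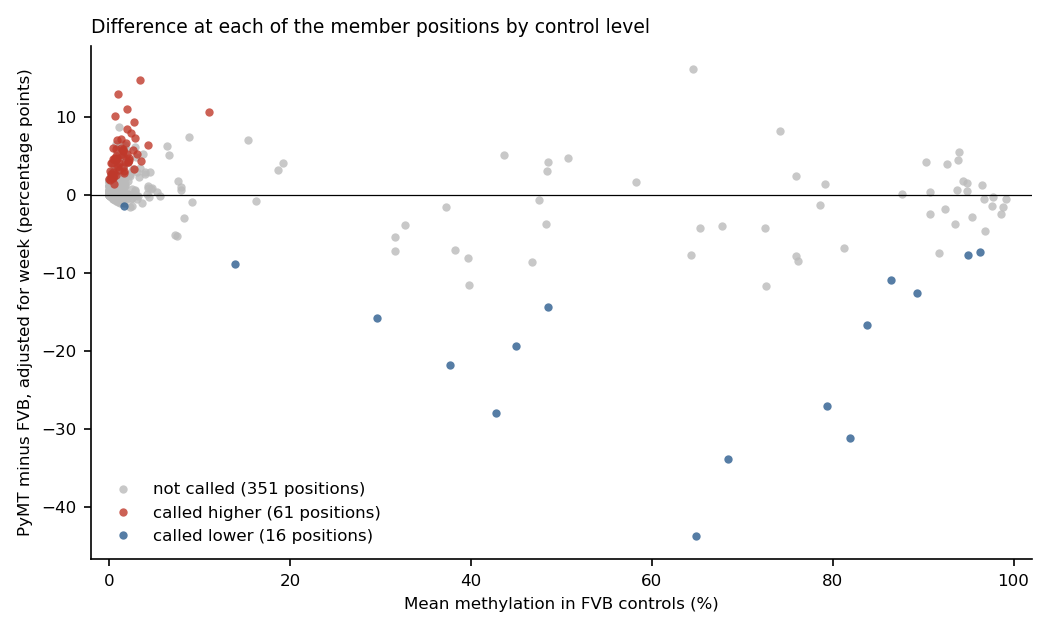
Mean methylation in the 12 FVB controls (x axis, %) against the difference of PyMT minus FVB adjusted for week (y axis, percentage points) at the 428 positions, colored by the mouse-level call. The 61 positions called higher gather at the left, 60 of them below a control level of 10%, and the 16 called lower are spread over the range of control levels.

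The H19 control region was represented by 2 positions, 2996 and 3042 bp upstream of the TSS, with mean coverages of 46.0 and 43.9 reads. Its mean methylation ranged from 47.1% to 77.9% in the 10 PyMT samples (median 60.6%) and from 57.9% to 81.9% in the 12 controls (median 69.0%). The groups overlapped over most of their range, with the 3 lowest values in PyMT mice. The means were 61.3% ± 10.5 (SD, n = 10) and 69.0% ± 6.78 (SD, n = 12), a difference of -7.92 ± 3.61 points (SE). This gave p = 0.0452 in an exact two-sided permutation test with labels permuted within week, and 0.0847 after Benjamini-Hochberg adjustment over the 15 regions tested. Per position, the SD between mice was 14.9 points in PyMT and 10.1 in FVB, where read counting alone gives 7.05 and 7.17. By week the PyMT mean was 50.6, 60.7, 70.4 and 59.3% at weeks 6, 8, 10 and 12, and the control mean 68.0, 65.0, 69.0 and 74.0%. Neither position was called by limma (adjusted p = 0.736 and 0.192) or reached the DMC thresholds given below at any stage. In the same window 3 more positions were covered in only part of the mice, and their PyMT means of 61.7, 55.6 and 62.2% lay below the control means of 70.4, 58.7 and 75.4%. Leaving out FVB week 10 replicate 1, PyMT adenoma/MIN replicate 2 or PyMT early carcinoma replicate 3 brought the adjusted p to 0.0288, 0.0361 and 0.0425. Over all omissions of 1 mouse the adjusted permutation p ranged from 0.0288 to 0.184 and the difference from -9.64 to -6.53 points.

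The control region was also set against the promoters of 10 maternally methylated imprinted genes (Peg3, Snrpn, Kcnq1ot1, Mest, Peg10, Plagl1, Nnat, Nap1l5, Airn and Peg13), whose promoter methylation is carried on the maternal copy. Averaged over these genes, promoter methylation was 46.0% ± 2.94 in PyMT (SD, n = 10) and 43.2% ± 1.55 in FVB (SD, n = 12), a gain of 2.83 ± 0.78 points (SE, exact permutation p = 0.00315). The genes did not share a direction: the mean was higher in PyMT at 7 genes and lower at 3, Snrpn (38.5% against 42.1%), Airn (39.5% against 42.5%) and Peg13 (41.2% against 43.1%). Of their 152 positions limma called 6 higher (3.95%, against 5.12% of all positions), 5 of them at Nap1l5, and 0 lower (against 9.24%). The control mean of these positions was 40.7%. Among all positions with controls at 30 to 70%, 21.4% were higher and 35.8% lower. Within each mouse, the H19 control region stood 15.3 ± 9.98 points above the maternally methylated promoters in PyMT and 25.8 ± 6.98 points in FVB (SD). The change at the 2 positions of this control region differed from the mean change of the 10 promoters by -10.8 ± 3.62 points (SE, exact two-sided permutation p = 0.0102, unadjusted). It compares 1 paternally methylated locus with an average over genes of unlike direction. Without FVB week 8 replicate 2 the value was -10.5.

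The H19 promoter and body held 9 positions. The sample means were 31.5% to 43.3% in PyMT (median 37.5%) and 30.8% to 46.7% in FVB (median 40.5%), and the groups overlapped. The adjusted difference was -2.03 ± 1.68 points (SE, exact permutation p = 0.249). It was -1.05 without PyMT adenoma/MIN replicate 2, -0.218 with a coverage minimum of 20 reads and -0.521 with pooled reads. The 6 positions 19 to 97 bp upstream of the TSS averaged 26.6% ± 6.84 in PyMT and 26.7% ± 3.75 in FVB (SD). One position in an H19 exon, 2178 bp downstream of the TSS (chromosome 7, 142575968), was called lower, from 48.5% ± 8.54 to 33.7% ± 11.3 (SD, limma, adjusted p = 0.0331).

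**Figure D2:**
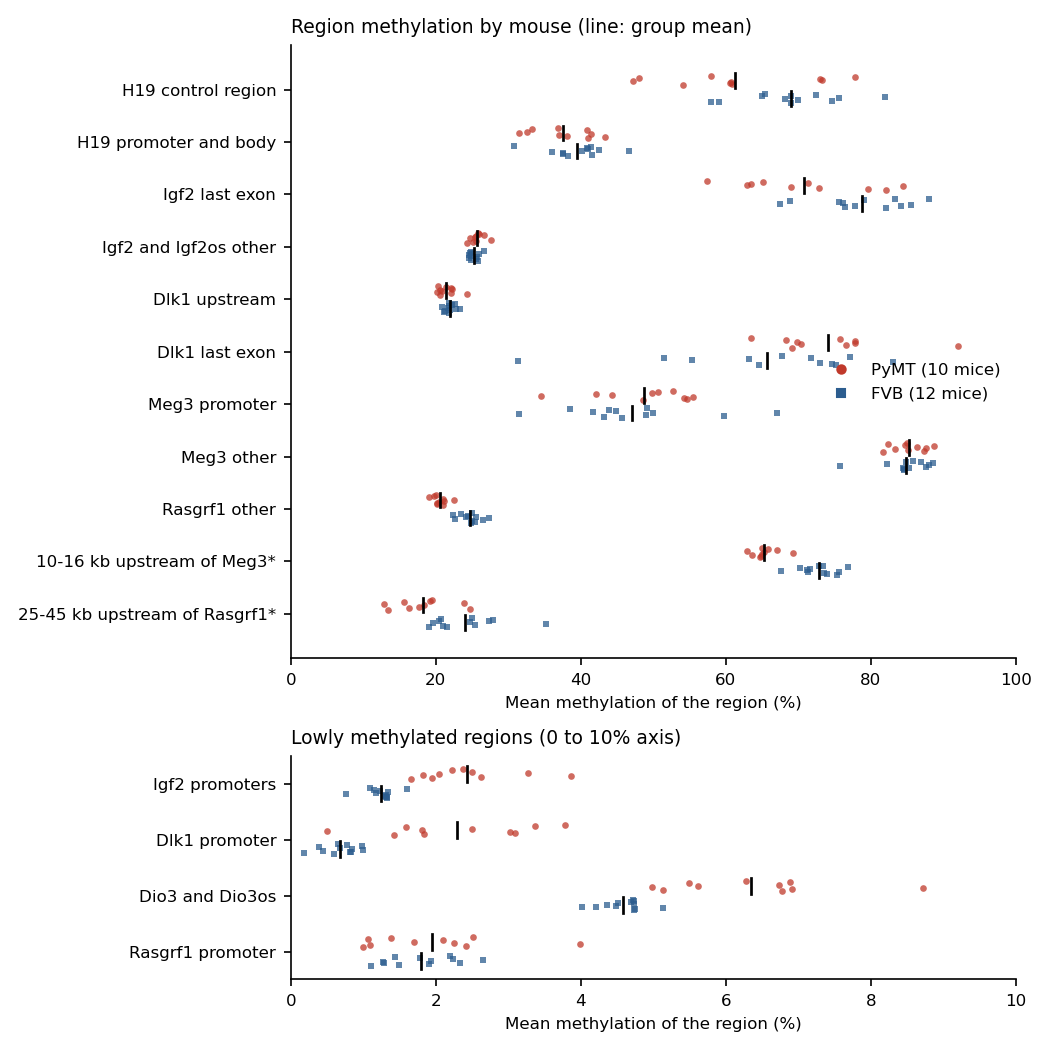
Mean methylation of each region by mouse (x axis, %), with 10 PyMT mice as circles, 12 FVB mice as squares and the group mean as a line; the lower panel has an axis from 0 to 10%, and regions with an asterisk lie outside the gene windows. At the Igf2 promoters every PyMT value was above the highest control value of 1.60%, while the strains overlapped at the H19 and Meg3 promoters.

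At Igf2 the promoters gained a little methylation. The 113 positions within 1 kb of any of its 4 TSSs averaged 1.65% to 3.86% in the PyMT samples (median 2.30%) and 0.755% to 1.60% in the controls (median 1.31%), and the groups did not overlap. The means of 2.43% ± 0.68 and 1.24% ± 0.20 (SD) differed by 1.19 ± 0.19 points (SE, exact permutation p = 2.5e-05, the smallest the 40000 arrangements allow, adjusted p = 0.000125). Of these positions 13 were called higher and 0 lower by limma, while the mean was higher at 92 and lower at 18. The largest single gain stood 335 bp upstream of a TSS (chromosome 7, 142659139, in an Igf2 intron), at 7.14% to 33.3% in PyMT (median 16.6%) and 0% to 10.5% in FVB (median 3.58%), overlapping in part. It rose by 14.8 ± 2.95 points (SE, limma, adjusted p = 0.00142), at a mean coverage of 29.0 reads. This position and the next one were chosen after their values were seen.

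The island printed above, 2429 to 2625 bp downstream of the most 5′ Igf2 TSS, also gained methylation. Its 29 positions averaged 4.33% to 9.88% in PyMT and 1.75% to 3.14% in FVB, with no overlap, and 12 of the 29 were called higher. Its edge position (chromosome 7, 142664191) was the single member at which all PyMT samples exceeded all controls, at 7.32% to 18.0% (median 10.0%) against 0% to 3.49% (median 0%), a rise of 10.2 ± 1.07 points (SE, limma, adjusted p = 1.9e-06).

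Upstream of that island, closer to the TSS, 3 positions of an Igf2 intron fell. At 142665553, which also lies in an Igf2os exon, methylation was 4.55% to 36.4% in PyMT (median 21.9%) and 23.1% to 90.9% in FVB (median 66.8%). FVB week 8 replicate 2 was the lowest control and the only one inside the PyMT range. This was the largest loss of all members, -43.7 ± 6.62 points (SE, limma, adjusted p = 0.000103), at a mean coverage of 19.8 reads. At 142665589 the range was 22.2% to 42.9% (median 33.4%) against 30.4% to 91.7% (median 64.3%), again with 1 control, FVB week 8 replicate 1, inside the PyMT range. The difference was -33.9 ± 6.09 points (SE, limma, adjusted p = 0.000556). At 142665182 every PyMT sample, at 6.90% to 24.1% (median 14.6%), lay below every control, at 27.3% to 54.3% (median 42.3%), and the difference was -28.0 ± 3.09 points (SE, limma, adjusted p = 3.3e-06). Each of the 3 was a hypomethylated DMC at weeks 6, 10 and 12 and not at week 8.

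The island and these 3 positions are among the 53 Igf2 and Igf2os positions outside the promoters and the last exon. Of the 53, limma called 12 higher and 3 lower. Gains and losses together left their mean at 25.7% ± 0.92 in PyMT and 25.3% ± 0.66 in FVB (SD, exact permutation p = 0.232). With a coverage minimum of 20 reads, which the 3 falling intron positions did not meet in every sample, the difference became 2.94 points with an adjusted p of 7.5e-05. A block of 11 positions 2818 to 2976 bp upstream of the most 5′ TSS was almost fully methylated, at 96.2% ± 0.87 in PyMT and 96.3% ± 1.13 in FVB (SD). In the last exon, 2 positions averaged 57.4% to 84.4% in PyMT and 67.5% to 88.1% in FVB, which overlapped, with a difference of -7.60 ± 3.30 points (SE, exact permutation p = 0.0353, adjusted p = 0.0756). The adjusted p fell to 0.0349, 0.0433, 0.0415 and 0.0160 without PyMT adenoma/MIN replicate 1, PyMT hyperplasia replicate 2, FVB week 8 replicate 2 or FVB week 6 replicate 3. Over all omissions of 1 mouse the adjusted permutation p ranged from 0.0160 to 0.147 and the difference from -9.02 to -5.78 points.

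**Figure D3:**
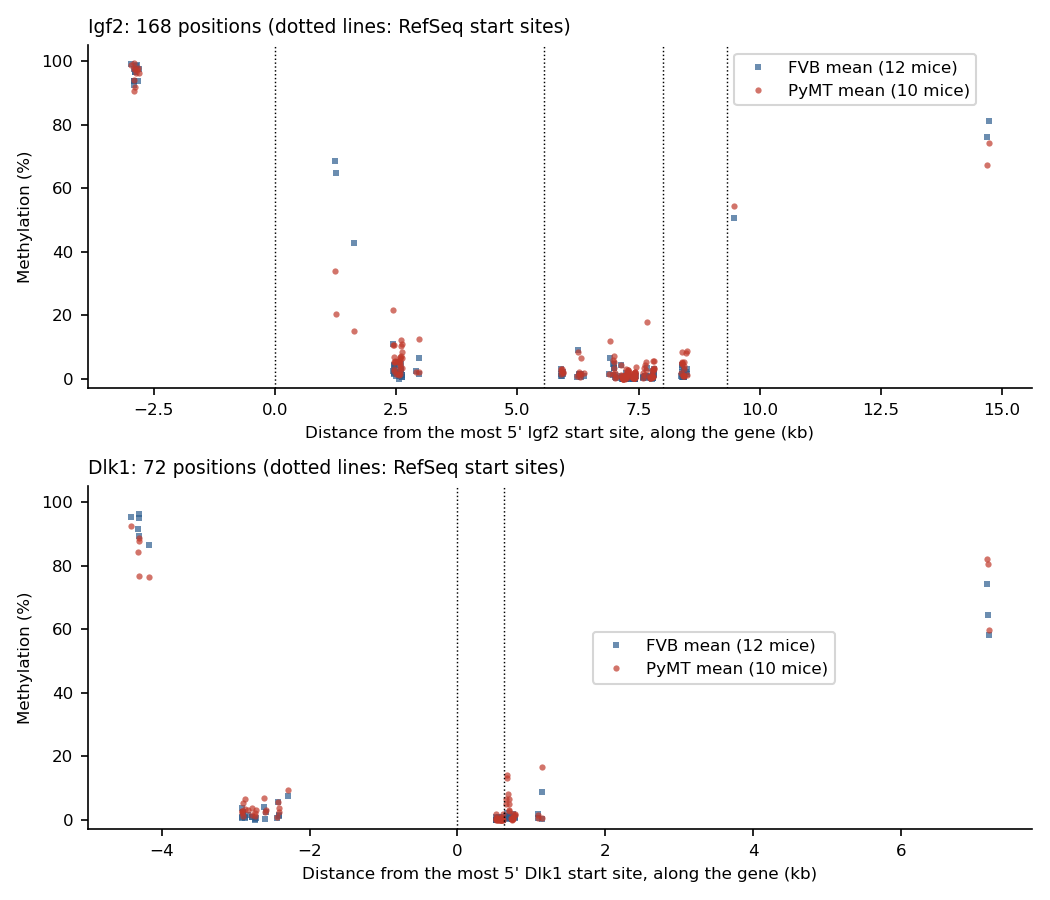
Mean methylation (y axis, %) of PyMT (circles, 10 mice) and FVB (squares, 12 mice) at each Igf2 position (upper panel, 168 positions) and Dlk1 position (lower panel, 72 positions) by distance from the most 5′ start site along the gene (x axis, kb). The 3 intron positions of Igf2 just downstream of the first start site lay lower in PyMT, and the Dlk1 promoter positions near the start sites reached up to 14.2% in PyMT, at a position with 0.991% in the controls.

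Dlk1 had an unmethylated promoter in the controls and a gain in PyMT, where the mean was higher at each later week. Its 42 promoter positions averaged 0.505% to 3.79% in PyMT (median 2.16%) and 0.178% to 0.995% in FVB (median 0.729%). The lowest PyMT value fell inside the control range and the other 9 lay above it. The means of 2.29% ± 1.03 and 0.683% ± 0.246 (SD) differed by 1.59 ± 0.25 points (SE, exact permutation p = 5e-05, adjusted p = 0.000150). By week the PyMT mean was 0.97, 1.74, 2.99 and 3.40% and the control mean 0.48, 0.72, 0.82 and 0.72%. Carcinoma samples (weeks 10 and 12) exceeded premalignant ones (weeks 6 and 8) by 1.72 points, 3.15% ± 0.48 against 1.43% ± 0.54 (SD, n = 5 each), and the groups did not overlap. This gave p = 0.00794 by an exact two-sided permutation test, the smallest it can give, and 0.119 after adjustment over the 15 regions, and a single region at the smallest p cannot pass that adjustment. In the controls the same weeks differed by 0.17 points (exact permutation p = 0.249), and the changes of the strains differed by 1.55 points (exact permutation p = 0.0123, adjusted p = 0.184).

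Of the 42 positions 7 were called higher and 1 lower by limma, and 3 adjacent minus-strand positions in the first exon, 33, 44 and 51 bp after a downstream TSS, held the largest gains among those called. At the first of these (chromosome 12, 109453488), methylation was 1.20% to 25.4% in PyMT (median 14.7%) and 0% to 3.61% in FVB (median 0.407%), and 1 PyMT sample lay inside the control range. The rise was 12.9 ± 1.82 points (SE, limma, adjusted p = 4.8e-05), chosen for mention after its value was seen. Its PyMT means by week were 4.40, 17.5, 16.1 and 16.1%.

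Upstream of Dlk1 the calls were losses. A methylated block of 6 positions 4175 to 4419 bp upstream of the TSS had 79.5% to 89.6% in PyMT and 87.2% to 97.2% in FVB, overlapping in part, and 4 of its positions were called lower. A lowly methylated block of 21 positions 2296 to 2917 bp upstream had 3.45% ± 0.98 in PyMT and 1.81% ± 0.68 in FVB (SD), with 0 positions called in either direction by limma, 5 higher and 0 lower at an unadjusted p under 0.05, and 2 hypermethylated DMCs. Together, the 27 positions upstream of the promoter differed by -0.57 ± 0.41 points (SE, exact permutation p = 0.177, adjusted p = 0.265), with an adjusted p of 0.0419 when PyMT adenoma/MIN replicate 1 was left out. Over all omissions of 1 mouse the adjusted permutation p ranged from 0.0419 to 0.429 and the difference from -0.838 to -0.405 points. In the last exon 3 positions varied widely, from 63.5% to 92.0% in PyMT and from 31.3% to 83.0% in FVB, with a difference of 8.70 ± 5.15 points (SE, exact permutation p = 0.111). With the coverage minimum of 20 reads this difference was 12.2 points with an adjusted p of 0.0285, and without FVB week 8 replicate 2 it was 5.29 points with an adjusted p of 0.350.

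**Figure D4:**
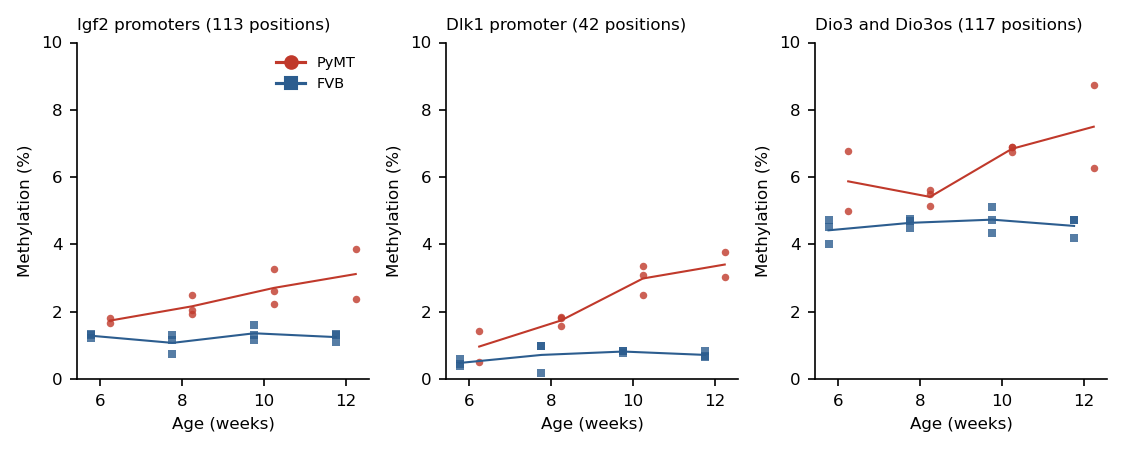
Mean methylation (y axis, %, 0 to 10) of the Igf2 promoters, the Dlk1 promoter and the Dio3 and Dio3os positions by age (x axis, weeks), with each mouse as a point and lines joining the weekly means of PyMT (circles) and FVB (squares). The Dlk1 mean in PyMT was 0.97% at week 6 and 3.40% at week 12, and the control means lay between 0.48% and 0.82%.

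The Meg3 promoter had intermediate methylation in both strains. Its 4 promoter positions, 351 to 405 bp upstream of the TSS, averaged 34.5% to 55.4% in PyMT (median 50.2%) and 31.5% to 67.0% in FVB (median 45.3%). The PyMT range lay inside the control range, and the difference was 1.25 ± 3.40 points (SE, exact permutation p = 0.717). The size of this difference rested on single mice, from 0.0589 points without FVB week 10 replicate 3 to 3.27 points without FVB week 8 replicate 2. The other 10 Meg3 positions averaged 85.2% ± 2.30 in PyMT and 84.9% ± 3.40 in FVB (SD, exact permutation p = 0.815). Limma called 0 of the 14, and 0 had an unadjusted p under 0.05, while 3 were hypermethylated at 1 or more stages in the read-level test.

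Between Dlk1 and Meg3, outside the gene windows, the window 10 to 16 kb upstream of the Meg3 TSS was chosen to take in the paternally methylated region of the domain. Whether its 12 covered positions lie in that region was not tested. Of these positions, 8 averaged 91.1% in FVB, which is not the intermediate level of a region methylated on 1 copy. The positions of the window stood in a pair of blocks. In the block printed above (chromosome 12, 109525712 to 109525792), 4 positions averaged 2.30% to 14.5% in PyMT (median 7.55%) and 22.9% to 42.3% in FVB (median 37.4%), and the groups did not overlap. All 4 were called lower by limma and were hypomethylated DMCs at each of the 4 stages, and their PyMT mean was 11.4% at week 6 and 4.00% at week 12, with control means of 36.9% and 36.8%. In the block about 1 kb nearer to Meg3 (109526678 to 109526737), 8 positions averaged 94.0% ± 2.49 in PyMT and 91.1% ± 2.52 in FVB (SD), with 0 called in either direction by limma, 0 at an unadjusted p under 0.05 and 2 hypermethylated DMCs. Over the whole window the difference was -7.41 ± 0.98 points (SE, exact permutation p = 2.5e-05, adjusted p = 0.000125), from 72.8% ± 2.57 in FVB to 65.3% ± 1.76 in PyMT (SD).

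The Dio3 and Dio3os positions, most of them in blocks around the TSSs of these divergent genes, gained methylation on average. Their 117 positions averaged 4.98% to 8.72% in PyMT (median 6.50%) and 4.02% to 5.13% in FVB (median 4.70%), with a single PyMT value inside the control range. The means of 6.35% ± 1.12 and 4.59% ± 0.29 (SD) differed by 1.78 ± 0.31 points (SE, exact permutation p = 2.5e-05, adjusted p = 0.000125). By limma 29 positions were higher and 3 lower. Most calls stood in a block of 68 positions around the Dio3os TSS (chromosome 12, 110277993 to 110278382), which averaged 1.56% to 6.82% in PyMT and 0.52% to 1.60% in FVB, touching only at the edge, with 20 positions called higher. The pair of blocks near the Dio3 TSS averaged 3.55% and 3.18% in PyMT against 1.06% ± 0.49 and 1.27% ± 0.73 in FVB (SD, n = 12), and overlapped in part, with 6 and 3 of 19 positions called higher.

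The Dio3os intron went the other way. At 110276015, 2053 bp downstream of its TSS, methylation was 41.9% to 69.1% in PyMT (median 49.5%) and 65.0% to 89.2% in FVB (median 81.4%), with 1 PyMT sample inside the control range, and a difference of -27.1 ± 3.02 points (SE, limma, adjusted p = 3.8e-06). In PyMT the weekly mean began at 67.0% and was 49.9% and 48.5% in the next weeks sampled, and the position was a hypomethylated DMC from week 8 on.

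At Rasgrf1 no difference was detected in the promoter, at 1.95% ± 0.92 in PyMT and 1.80% ± 0.49 in FVB over 18 positions (SD, exact permutation p = 0.492), with 0 positions called by limma in either direction, 0 at an unadjusted p under 0.05 and 0 DMCs. The other 28 positions averaged 18.999% to 22.6% in PyMT (median 20.3%) and 22.4% to 27.4% in FVB (median 24.9%), with 1 PyMT value inside the control range. Their difference was -4.21 ± 0.58 points (SE, exact permutation p = 5e-05, adjusted p = 0.000150), with 4 intron positions called lower. The largest loss, at 89958105 in an intron 48330 bp downstream of the TSS, was from 69.2% to 89.6% in FVB (median 83.9%) to 34.1% to 73.8% in PyMT (median 48.6%), a difference of -31.2 ± 4.88 points (SE, limma, adjusted p = 0.000144). Its PyMT means by week were 63.8, 51.9, 48.8 and 38.4%, and its control means 78.4, 78.9, 84.4 and 85.8%. The change from weeks 6 and 8 to weeks 10 and 12 was not called different between the strains (-18.4 ± 8.57 points, SE, limma interaction, adjusted p = 0.845). In the window 25 to 45 kb upstream of the TSS, outside the gene windows, 5 positions averaged 12.9% to 24.8% in PyMT and 19.1% to 35.2% in FVB, with overlap. The difference of -5.68 ± 1.98 points (SE, exact permutation p = 0.00843, adjusted p = 0.0211) rested in part on PyMT hyperplasia replicate 1, without which it was -4.92 with an adjusted p of 0.0583. With strands merged it was -5.33 with an adjusted p of 0.05, which is not under the threshold.

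**Figure D5:**
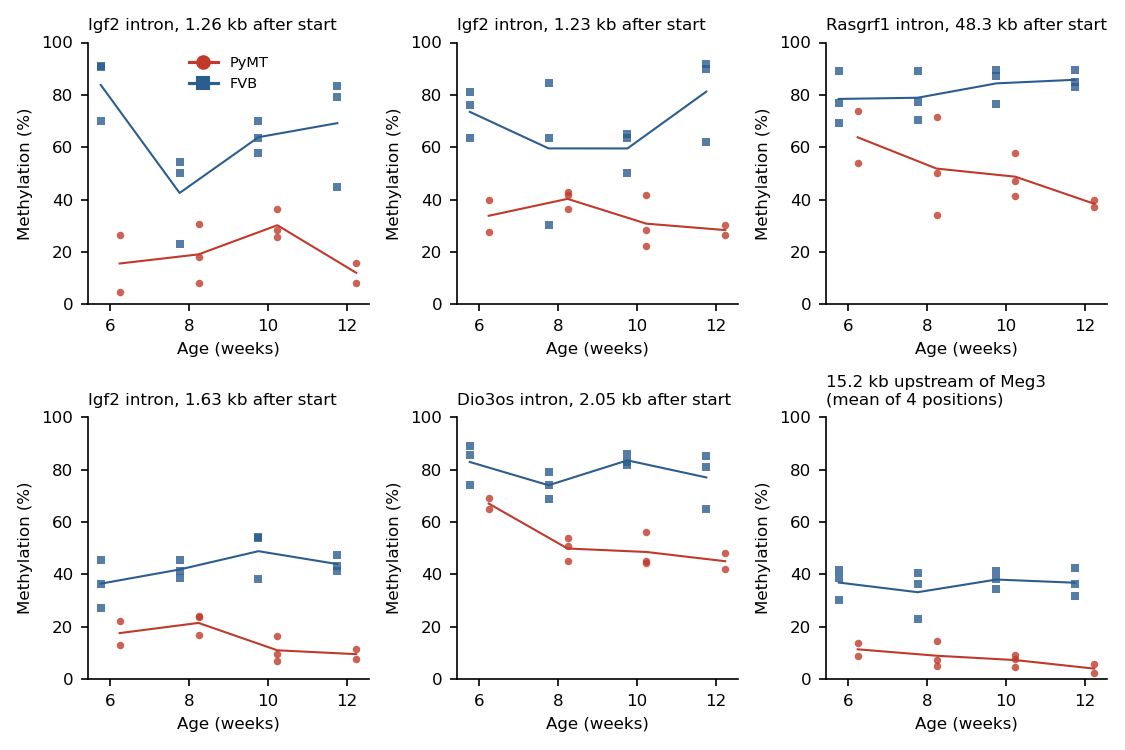
Methylation (y axis, %) by age (x axis, weeks) at the 5 positions with the largest losses and, in the last panel, as the mean of 4 positions upstream of Meg3, with each mouse as a point and lines joining the weekly means of PyMT (circles) and FVB (squares). In the last panel the PyMT samples lie between 2.30% and 14.5%, all below the controls.

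Stage by stage, differentially methylated cytosines (DMCs) were positions with a q-value under 0.01 in a logistic regression on pooled reads and a pooled difference of at least 10 points. Such a test takes reads and not mice as the unit. DMCs of either direction made up 8.63, 10.3, 12.8 and 13% of all positions from week 6 to week 12, against 10, 21, 25 and 27 of the 428 members. At hyperplasia 5 members were hypermethylated (1.17%, against 2.62% of all positions) and 5 hypomethylated (1.17%, against 6.01%). At adenoma/MIN there were 11 (2.57%, against 3.2%) and 10 (2.34%, against 7.1%). Early carcinoma had 11 (2.57%, against 4.39%) and 14 (3.27%, against 8.42%), and late carcinoma 15 (3.50%, against 4.44%) and 12 (2.80%, against 8.53%). Controls were below 10% at 357 of the 428 members, against 730101 of all 1140639 positions. Such levels leave little room for a loss of 10 points, and the DMC shares were not compared within control levels. Over the stages 32 members were hypermethylated at least once and 21 hypomethylated at least once, and no member was a DMC of the same direction at all 4 stages by this test. Single mice weighed on these counts. Without PyMT hyperplasia replicate 1 the hyperplasia counts were 1 and 3, without replicate 2 the hypermethylated count was 12, and without FVB week 6 replicate 2 the hypomethylated count was 3. The adenoma/MIN hypermethylated count was 7 without PyMT replicate 1 or FVB week 8 replicate 2, and the early carcinoma counts were 17 hypermethylated without PyMT replicate 1 and 9 hypomethylated without FVB week 10 replicate 1. Without PyMT late carcinoma replicate 3 the late hypermethylated count was 34.

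The change from premalignant to malignant weeks differed between PyMT and FVB at 1 member by limma (interaction, adjusted p under 0.05), against 14 of all positions (0.00123%) in this direction. The position, 142659523 in the Igf2 promoters, was at 0% in every control and at 0% to 5.68% in PyMT (median 1.77%), and the difference of changes was 3.77 ± 0.46 points (SE, adjusted p = 0.0176). The call was lost without FVB week 8 replicate 1, FVB week 10 replicate 1, PyMT hyperplasia replicate 2 or FVB week 6 replicate 3, with adjusted p of 0.0531, 0.0530, 0.0513 and 0.0530. In the other direction limma called 0 members and 0 of all positions (0%), with 9 members at an unadjusted p under 0.05, and 32 in the higher direction. In both directions these were 9.58% of the members, against 4.52% of all positions. None of the 15 regions passed an adjusted p of 0.05 in the malignant against premalignant PyMT comparison by the exact permutation test, 3 of them with an unadjusted p under 0.05 (the Igf2 promoters, the Dlk1 promoter, and Dio3 with Dio3os).

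Read depth over the regions is a readout that does not use the methylation calls. Relative to the mean coverage of its sample, no region passed in the exact permutation test, where the smallest unadjusted p was 0.173 and 0 regions had one under 0.05. The Igf2 promoters, for example, were covered at 104% ± 7.46 of the sample mean in PyMT and 103% ± 8.80 in FVB (SD).

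Genes around these loci and in their pathway were read within 2 kb of their TSSs. Of 292 positions of 11 covered neighbors of H19-Igf2, 15 were called higher and 26 lower by limma (5.14% and 8.90%, near the 5.12% and 9.24% of all positions). The genes with most calls were Cdkn1c, an imprinted inhibitor of cyclin-dependent kinases (10 higher and 2 lower of 76), and Slc22a18 (1 and 7 of 13). Of 812 positions of 8 covered neighbors of Dlk1-Dio3, 39 were higher (4.80%), all at Begain (39 of 282), and 2 were lower (0.246%), both at Degs2. Of 1353 positions of 14 covered genes of the insulin-like growth factor axis, 46 were higher and 6 lower (3.40% and 0.443%). Both shares were below those of all positions, but the list had a control mean of only 2.27%. Among all positions with controls below 10%, 2.54% were higher and 0.351% lower, so that both shares of the list lay above these. Igfbp6, which encodes a binding protein with preference for IGF2, held 18 of the higher ones in 29 positions, with a mean of 42.1% ± 6.38 in PyMT and 28.2% ± 2.97 in FVB (SD). Of 1048 positions of 13 covered genes of imprint maintenance, 4 were higher and 4 lower (0.382% each), the latter all at Dnmt3l, a cofactor of the de novo methyltransferases, at 44.2% ± 6.91 in PyMT and 78.6% ± 6.67 in FVB (SD). The median difference was 0 in each of these 4 lists, as it was over all positions.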

How the data were processed

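The authors aligned ERRBS reads to mm10 with Bismark, per the labels, and deposited for each mouse the read count (coverage) and the percent of methylated and unmethylated reads at CpG cytosines with at least 10 reads, strands apart and without normalization. Bisulfite conversion rates are not given in the sources used here. Per-position differences at low levels can depend on them. The study removed 2 outliers of its own.

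Methylated and unmethylated reads were recovered as coverage times percent, rounded. Logistic regression and limma were fitted on all positions covered in all 22 samples. Limma used the percent with week as a factor, or strain by period for the interaction. P-values adjusted for many positions are from limma with the Benjamini-Hochberg method. Region values were unweighted means, tested by exact permutation within week (40000 arrangements). The p-values of limma and of the permutation tests measure the spread between mice. Those of the logistic regression take reads as the unit and do not. Members, regions and gene lists were chosen with earlier results of these data known. The Dlk1 positions upstream of its promoter were made a region after seeing the data. TSSs came from curated RefSeq transcripts of GRCm38.p6. The printed sequences were read from its genome. Named positions were the 5 with the largest absolute difference among those called and any inside a CTCF match (0), and at most 3 genes of each list with most called positions.

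All 20 pairs of samples of the same group differed by more than sampling noise (mean chi-square 1.85 to 3.53). Scripts were tested on simulated data. R 4.3.3 with limma 3.58.1 gave the limma fits, and the rest ran in Python 3.11.15 with SciPy 1.17.1. Expression was not analysed here.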

Additional observations from a re-analysis of the deposited data

Results flagged for a closer look

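In 60 groups of samples and regions, 6 held a sample whose gap to the nearest other was large for the range of its group, where chance alone gives about 1 in 20 groups. The H19 promoter and body stood at 31.5% in PyMT adenoma/MIN replicate 2, and at 40.8% to 43.3% in the other premalignant PyMT samples. In the same comparison among week 6 and week 8 controls, FVB week 8 replicate 2 was low at the Igf2 promoters (0.755%, others 1.15% to 1.33%) and at the Meg3 positions outside the promoter (75.7%, others 84.5% to 88.5%). PyMT late carcinoma replicate 1 was high among the carcinoma samples at the Igf2 and Igf2os positions outside the promoters and the last exon (27.6%, others 25.5% to 25.9%). It was also high at Dio3 and Dio3os (8.72%, others 6.27% to 6.91%). FVB week 6 replicate 2 was low at Dio3 and Dio3os (4.02%, others 4.49% to 4.74%). The change from premalignant to malignant weeks differed between PyMT and FVB at position 142659523 of the Igf2 promoters by 3.77 points, by the limma interaction given above.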

How the results depend on the processing

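Of 903 values recomputed under an alternative, 846 kept their direction and side of the threshold or stayed near the main value, 7 lost a call, 11 gained one, 3 changed sign and 36 moved. Of 162 such values for the regions called, 160 kept their call, the exceptions being the window upstream of Rasgrf1 with strands merged and without PyMT hyperplasia replicate 1, given above. With a coverage minimum of 20 reads, hypomethylated hyperplasia DMCs numbered 1, hypermethylated adenoma/MIN DMCs 7 and members called lower by limma 10. With overdispersion correction the hyper- and hypomethylated counts were 1 and 2 at hyperplasia and 5 and 2 at adenoma/MIN, with 6 hypermethylated at early and 4 hypomethylated at late carcinoma. With a difference of at least 25 points they were 0 and 2, 2 and 2, 0 and 7, and 0 and 7 over the stages. Positions covered in the samples of the comparison alone gave 8 hypomethylated at hyperplasia, and all PyMT mice on one side of the controls gave 7 and 5 at adenoma/MIN. On the logit scale limma called 0 members higher in the interaction (adjusted p = 0.0632 for 142659523). The cause of these shifts was not tested.

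Leaving out 1 mouse at a time, hyper- and hypomethylated DMCs ranged from 1 to 12 and 3 to 5 at hyperplasia, 7 to 14 and 7 to 12 at adenoma/MIN, 10 to 17 and 9 to 13 at early carcinoma, and 14 to 34 and 9 to 12 at late carcinoma. Members called by limma ranged from 43 to 65 higher and 12 to 17 lower, those in the interaction from 0 to 2, the latter without PyMT early carcinoma replicate 2 or 3. The remaining Meg3 positions ranged from -0.604 (without FVB week 8 replicate 2) to 1.03 points and were -0.0372 without PyMT adenoma/MIN replicate 1, and the Rasgrf1 promoter from -0.0019 (without PyMT late carcinoma replicate 1) to 0.340. Without FVB week 8 replicate 2 limma called 57 higher and 14 lower, and with a mean-variance trend, an alternative chosen after seeing the data, 61 and 16.

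Replicate numbers did not pair the mice: 0 of 10 same-number pairs had correlated deviations over 0.1 (-0.0391 to 0.0285). With the replicate number as a block, limma called 55 higher and 16 lower, 53 and 16 of them shared with the fit without it, and DMCs numbered 4 and 5, 9 and 10, 10 and 13, and 14 and 12 over the stages. The Igf2 last exon passed with the block (-9.21 points, adjusted p = 0.0244), and the H19 control region against maternally methylated promoters was -9.30 points. Only 2 positions represent the H19 control region, and coverage of about 20 reads limits a pair of the Igf2 intron positions.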
